A study of Mus musculus with 15 samples.

Results

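Distal H3K4me3 peaks were the peaks of wild-type (WT) liver, replicate 2, that overlapped a peak of WT replicate 1 by at least 1 bp and lay more than 5 kb from the body of any protein-coding gene on chromosomes 1 to 19. They were thus selected on peak calls of the 2 WT lists and on position, and there were 2894 of them among the 24071 peaks found in both WT libraries. The other 21177 lay over a coding gene body (17606) or within 5 kb of one (3571). The study profiled H3K4me3, H3K27me3 and H3K9me3 by ChIP-seq, which sequences DNA recovered with an antibody to a histone modification, in the liver of mice (strain C57Bl/6, 8 to 12 weeks old, normal diet). The groups used were WT and Uhrf1hepKO (KO), the latter named for loss in hepatocytes of Uhrf1, whose protein directs maintenance DNA methylation. The sources used here do not say how the deletion was made, and cells other than hepatocytes were part of the tissue. H3K4me3 had 2 libraries per genotype, of which replicate 2 was labelled as round 2 and replicate 1 carried no round. H3K9me3 had 1 library per genotype. H3K27me3 had 2 WT libraries and 1 KO library of resting liver, and, during liver regeneration, 1 WT library each at 30 h, at 40 h and at 96 h. The labels do not say whether libraries came from separate animals.

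H3K4me3 is laid down by SET1 and MLL methyltransferase complexes and is known chiefly from active and poised promoters, most of them rich in CpG dinucleotides. Away from coding genes it is found at promoters of long noncoding RNAs (lncRNAs) and microRNAs, beside genes transcribed by RNA polymerase III such as those of tRNAs, and weakly at enhancers. Polycomb complexes deposit and read H3K27me3 at repressed genes, while H3K9me3 is typical of heterochromatin over repeats.

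The 4 H3K4me3 lists held 70687 (WT replicate 1), 24917 (WT replicate 2), 71868 (KO replicate 1) and 26206 (KO replicate 2) peaks on chromosomes 1 to 19. The depth of the libraries is unknown, and no values between groups were tested, since the lists hold called regions without counts per region. Each percent carries an exact Clopper-Pearson 95% interval, which reflects counting error alone. Genes of hepatocytes such as Alb and Hnf4a carried a peak at 10 of 10 in every library. Of 10 marker genes of other liver cells, 6 carried one in each replicate 1 library and 8 in each replicate 2 library, and the bile duct gene Krt19 and the T cell gene Cd3e carried none in any. Uhrf1 itself carried a peak in all 4 libraries, which does not test the deletion. The replicate 2 libraries bear an antibody tag of H3K9me3 against titles of H3K4me3, and were taken by title; 1.44% of the peaks of WT replicate 2 and 1.36% of those of KO replicate 2 overlapped broad H3K9me3 peaks of WT, against 4.13% and 5.30% of the peaks of replicate 1.

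The lncRNA promoters beneath distal peaks ranged from dense in CpG to nearly free of it. The following 6 were chosen, after their values were seen, to span that range among the strongest and widest distal peaks and those at known lncRNAs. Each is the RefSeq window of GRCm38.p6 from 250 bases before to 50 after the annotated start, 5′ to 3′ on the strand of the gene, with CpG in capitals. E130102H24Rik lies at chr4:101356199-101356498 (minus strand), Snhg15 at chr11:6528711-6529010 (minus), Lncpint at chr6:31218425-31218724 (minus), Malat1 at chr19:5802623-5802922 (minus), BC002059 at chr17:16951286-16951585 (plus) and Gm33971 at chr16:64874297-64874596 (minus).
E130102H24Rik: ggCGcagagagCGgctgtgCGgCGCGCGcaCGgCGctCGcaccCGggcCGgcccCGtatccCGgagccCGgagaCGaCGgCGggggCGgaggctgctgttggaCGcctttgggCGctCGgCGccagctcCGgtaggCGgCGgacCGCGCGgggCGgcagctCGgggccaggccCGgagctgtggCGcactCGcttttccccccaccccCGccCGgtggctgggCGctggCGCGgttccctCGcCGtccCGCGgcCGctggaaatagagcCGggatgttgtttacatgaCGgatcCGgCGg
Snhg15: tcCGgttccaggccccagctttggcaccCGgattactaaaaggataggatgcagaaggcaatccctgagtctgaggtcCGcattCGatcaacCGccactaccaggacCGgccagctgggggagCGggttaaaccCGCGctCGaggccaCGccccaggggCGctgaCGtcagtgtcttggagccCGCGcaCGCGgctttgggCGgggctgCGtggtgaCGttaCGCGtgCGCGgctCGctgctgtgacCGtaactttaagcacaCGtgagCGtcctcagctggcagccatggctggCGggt
Lncpint: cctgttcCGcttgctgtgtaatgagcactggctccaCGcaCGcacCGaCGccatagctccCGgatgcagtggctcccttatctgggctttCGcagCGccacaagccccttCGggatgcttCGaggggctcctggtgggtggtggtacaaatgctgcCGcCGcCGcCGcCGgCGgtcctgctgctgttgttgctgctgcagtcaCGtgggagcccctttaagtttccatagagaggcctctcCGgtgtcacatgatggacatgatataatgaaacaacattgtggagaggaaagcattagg
Malat1: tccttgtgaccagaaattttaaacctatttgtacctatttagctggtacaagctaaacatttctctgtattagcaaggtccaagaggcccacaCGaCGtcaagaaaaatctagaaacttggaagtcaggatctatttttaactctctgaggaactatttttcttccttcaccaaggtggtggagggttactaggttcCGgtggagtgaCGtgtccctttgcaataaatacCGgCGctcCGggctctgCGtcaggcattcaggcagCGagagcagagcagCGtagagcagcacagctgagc
BC002059: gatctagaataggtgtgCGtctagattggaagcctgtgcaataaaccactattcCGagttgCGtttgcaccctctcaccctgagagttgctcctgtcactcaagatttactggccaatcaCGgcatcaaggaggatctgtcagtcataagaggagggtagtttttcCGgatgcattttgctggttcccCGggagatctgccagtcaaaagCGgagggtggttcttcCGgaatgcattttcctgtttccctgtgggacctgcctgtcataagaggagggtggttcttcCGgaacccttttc
Gm33971: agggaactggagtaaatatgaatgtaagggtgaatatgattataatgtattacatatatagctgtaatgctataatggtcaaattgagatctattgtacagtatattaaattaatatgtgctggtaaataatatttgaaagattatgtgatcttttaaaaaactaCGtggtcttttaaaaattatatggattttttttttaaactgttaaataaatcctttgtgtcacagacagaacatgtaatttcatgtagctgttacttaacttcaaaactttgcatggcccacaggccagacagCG
The windows hold 47 CpG in E130102H24Rik, 29 in Snhg15, 18 in Lncpint, 10 in Malat1, 9 in BC002059 and 2 in Gm33971. The fold enrichment that the authors' peak caller gave the overlapping peak in WT replicate 2 was 49.5 at E130102H24Rik, 49.9 at Snhg15, 50.9 at Lncpint, 53.4 at Malat1, 117 at BC002059 and 112 at Gm33971. The order of these 6 does not stand for such promoters at large. Distal peaks over lncRNA windows with 15 or more CpG had a median fold of 31.3, against 21.5 with 2 or fewer.

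Distal peaks were short and weak beside those at genes. Their width had a median of 309.5 bp (middle 50%, 180 to 582 bp), against a median of 707 bp at or near coding genes. The fold in WT replicate 2 had a median of 8.32 (middle 50%, 5.88 to 16.2), against 24.97. Together the distal peaks spanned 1.40 Mb, against 19.3 Mb. Only 55 (1.90%) were over 2 kb wide, against 8.57% of the peaks at or near genes. In the list of WT replicate 1 the peaks they overlapped were wider, with a median of 776.5 bp, and 2709 peaks of that list accounted for all 2894, so neighbouring members can share a single peak there. All these values come from the lists that chose the members and are descriptions.

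**Figure D1:**
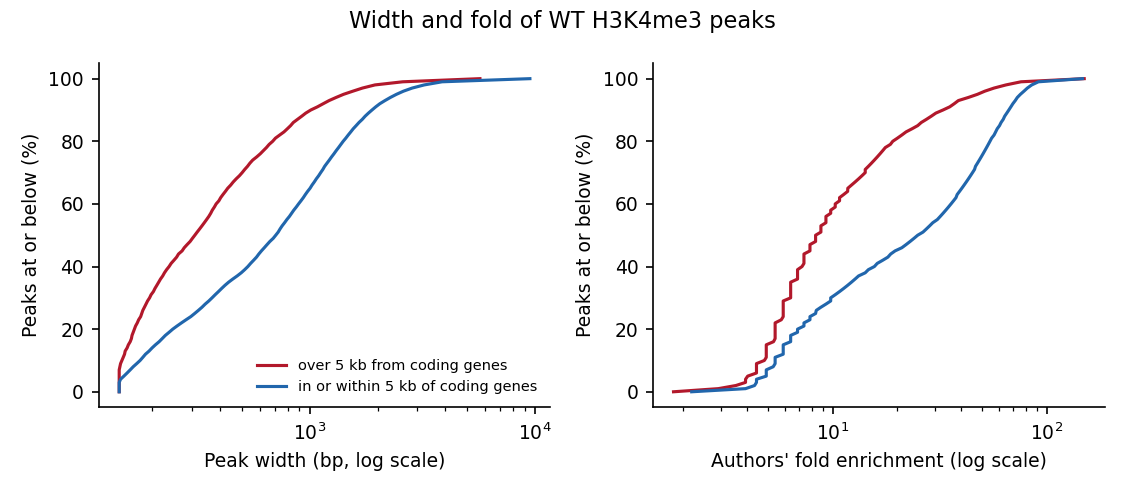
Cumulative share of WT H3K4me3 peaks (percent, vertical) by width in bp (left, log axis) and by the authors' fold enrichment in WT replicate 2 (right, log axis), for 2894 peaks over 5 kb from coding genes (red) and 21177 in or near them (blue). The red curves lie to the left, with medians of 309.5 bp and 8.32-fold against 707 bp and 24.97-fold.

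The 5 kb limit fell within a continuous range of peaks. The nearest members inside it lay 5017 bp from Zfp213 (fold 38.4 in WT replicate 2), 5025 bp from Map1lc3b (26.4), 5025 bp from Actg1 (10.3), 5027 bp from Pdpr (57.8) and 5043 bp from Elovl5 (65.6). The nearest peaks left out lay 4997 bp from Mlf2 (26.4), 4986 bp from Ntng2 (6.37), 4980 bp from Minar2 (16.2), 4979 bp from Sfpq (24.9) and 4954 bp from Rdm1 (22.03). All 10 were present in both KO libraries. Of the members, 554 lay at 5 to 10 kb from a coding gene, 1475 at 10 to 50 kb, 393 at 50 to 100 kb, 433 at 100 to 500 kb and 39 beyond 500 kb.

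Among the widest distal peaks were those over Neat1 (5440 bp), the lncRNA that scaffolds paraspeckles, and Malat1 (5419 bp), an abundant lncRNA of nuclear speckles. The folds at Neat1 were 21.9 and 53.9 in WT replicates 1 and 2, and 18.7 and 73.6 in KO replicates 1 and 2. Those at Malat1 were 25.7, 53.4, 23.1 and 72.2 in the same order. At both genes the folds were higher in both replicate 2 lists than in both replicate 1 lists, and folds of different lists are not on one scale. Others of the 10 widest lay over 2810410L24Rik (4819 bp), E130102H24Rik with 0610043K17Rik (4610 bp), the pseudogene Cyp2d38-ps (4363 bp), an interval without annotated genes 60.8 kb from Ppara (4338 bp), Mir193a (4114 bp), Gm36139 (4109 bp) and Lncpint (4011 bp). All 55 members over 2 kb wide were present in KO replicate 2, against 95.7% of all peaks of both WT libraries. Their folds in WT replicate 2 were at least 14.7. None overlapped an H3K27me3 island of WT replicate 1, against 10.2% of all those peaks. H3K9me3 broad peaks overlapped 1 in WT and 2 in KO, against 1.01% and 0.947% of all those peaks.

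The strongest distal peaks were other ones. Of the 10 of highest fold in WT replicate 2, 5 belonged to a single cluster on chromosome 6, described below. The second highest, at chr19:61199547-61200146, 17.0 kb from Csf2ra, had folds of 8.12 and 138 in WT replicates 1 and 2 and of 7.72 and 142 in KO. In replicate 1 it stood at the 61.6th percentile of the WT list and the 62.1st of the KO list, against the 99.98th and 99.95th in replicate 2. A peak at chr1:195241523-195242019, 64.6 kb from Cr2, behaved alike, with folds of 8.03 and 114 in WT and 6.81 and 100.9 in KO. The peaks at BC002059 (26.7 and 117 in WT, 27.3 and 126 in KO) and Gm33971 (23.9 and 112 in WT, 24.7 and 132 in KO) ranked high in all 4 lists. The peak at the pseudogene Gm10060 (chr8:19784292-19785586) had folds of 24.3 and 126 in WT and 22.6 and 147 in KO.

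A noncoding gene, here any annotated gene other than a protein-coding one, lay within 1 kb of 1297 members, or 44.8%, against 21% of all peaks found in both WT libraries. Distance from coding genes is part of the rule, so the shares are given as a description. Members with such a gene were wider (median 369 bp) than those without (271 bp) and had a median fold of 9.79 against 7.83. By class, 1009 members lay within 1 kb of a lncRNA gene, 185 of a pseudogene, 111 of a tRNA gene, 28 of a small nuclear RNA gene, 13 of a miRNA gene, 10 of a small nucleolar RNA gene and 7 of a ribosomal RNA gene. A member can count in more than 1 class.

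Genes of tRNAs had distal peaks most often. Of the 269 tRNA genes over 5 kb from coding genes, 121 (45.0%; interval 38.9 to 51.1%) had a member within 1 kb, against 587 of 6280 lncRNA genes (9.35%; 8.64 to 10.1%) and 135 of 6211 pseudogenes (2.17%; 1.83 to 2.57%). The peak lay over the tRNA gene in 58 cases and beside it in 63. The share differed by amino acid: 14 of 17 leucine, 11 of 12 proline and 10 of 13 arginine tRNA genes had a peak, but only 1 of 51 cysteine tRNA genes. The 111 members near tRNA genes had a median width of 620 bp and a median fold of 20.1. All 111 were present in both KO libraries, against 94.8% of all peaks of both WT libraries. Of all members with folds from 7.34 to 20.6, 97.2% were present in KO replicate 2, and 100% of those with higher folds. Genes of identical tRNAs are near copies of one another, and whether reads were shared among them was not tested.

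**Figure D2:**
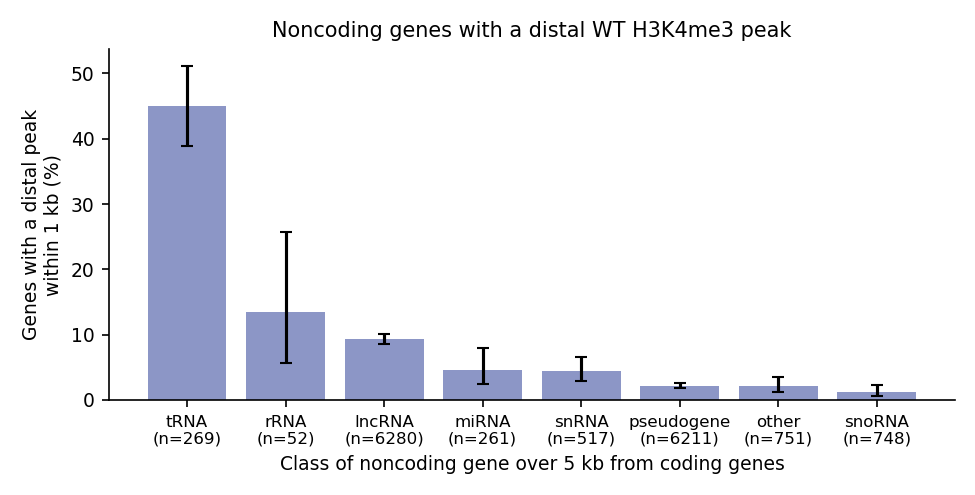
Percent of noncoding genes over 5 kb from coding genes that had a distal WT H3K4me3 peak within 1 kb, by class (bars; error bars are exact 95% intervals; n is the number of genes in the class). The tRNA bar, at 45.0%, stands above that of lncRNAs at 9.35% and of pseudogenes at 2.17%.

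Of 73 long noncoding and small RNA genes in a list of known ones, 68 were matched in the gene table by symbol, 29 lay over 5 kb from other coding genes, and 22 of the 68 had a member within 1 kb. They included Terc, the RNA of telomerase, Rny1 and Rny3, the Y RNAs bound by Ro60, the snoRNA hosts Snhg5, Snhg15, Snhg17 and Snhg20, and Oip5os1, also called Cyrano. At Terc the folds were 17.5 and 36.7 in WT and 14.7 and 48.6 in KO. At Oip5os1 they were 22.2 and 73.4 in WT and 21.6 and 105 in KO for the stronger of its 2 members. Each was marked in all 4 libraries.

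Some lncRNAs carried several members. Mir99ahg, a host of miRNAs on chromosome 16, had 10 along its body, of which that at its start was 2406 bp wide with folds of 23.3 and 42.7 in WT and 22.4 and 58.4 in KO, and 3 weaker ones had no peak in KO replicate 2. Lncpint, a lncRNA induced by p53, had 7, and Neat1 had 5. Dleu2 and Pvt1, the latter a neighbour of Myc, had 3 each. All 5 members at Neat1 overlapped the same peak of 11525 bp in WT replicate 1. One of them, with a fold of 4.90 in WT replicate 2, had no peak in KO replicate 2. Some members at Lncpint likewise shared a peak of 2545 bp in WT replicate 1. Of the 22 genes, Sox2ot and Mir100hg had a member that overlapped an H3K27me3 island in both WT libraries of resting liver and in KO, and Morrbid had one in WT replicate 2 alone. At 30 h the member at Sox2ot overlapped none. Sox2ot overlaps Sox2, a regulator of progenitor cells.

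The miRNA genes with a member within 1 kb numbered 12 of 1136. All 12 were among the 261 miRNA genes over 5 kb from coding genes (4.60%; 2.40 to 7.89%). The miRNAs are short RNAs that pair with messenger RNAs through a seed, bases 2 to 8. It is shown here in capitals in RefSeq mature sequences of some of the 12 genes. Others are left out, among them Mir6516, which lay under a peak with a fold of 64.1 in WT replicate 2.
mmu-let-7i-5p: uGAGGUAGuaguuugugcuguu
mmu-miR-802-5p: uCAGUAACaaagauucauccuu
mmu-miR-17-5p: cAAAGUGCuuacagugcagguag
mmu-miR-193a-3p: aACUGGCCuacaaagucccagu
mmu-miR-137-3p: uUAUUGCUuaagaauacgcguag
mmu-miR-760-3p: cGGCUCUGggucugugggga
The 19 mature miRNAs read for 11 of these genes had 19 different seeds. Mirlet7i lay under a peak of 2473 bp with folds of 16.0 and 32.8 in WT and 16.8 and 48.2 in KO. Mir802, a liver-enriched miRNA, lay at the edge of a peak of 1552 bp with folds of 14.0 and 16.6 in WT and 16.0 and 18.9 in KO. Mir17, the first gene of a cluster of miRNAs that promote proliferation, lay 997 bp from a peak of 1728 bp with folds of 19.3 and 24.97 in WT and 17.1 and 36.3 in KO. All 3 were marked in every library. They were the 3 with a member within 1 kb among the 44 of 45 liver miRNA genes matched in the table. Of those 44, 20 lay over 5 kb from coding genes.

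Mir122, the most abundant miRNA of hepatocytes, fell just outside that limit, 1042 bp from a member 143 bp wide with folds of 7.88 and 4.41 in WT and 9.47 and 58.4 in KO. The KO peaks are those that overlap the member, and can be wider than it.

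Members covered few lncRNA promoters, and the covered ones held more CpG than the rest. Of 6494 promoter windows of lncRNA genes over 5 kb from coding genes, 277 (of 242 genes) overlapped a member, and 256 members did so. The covered windows held a median of 8 CpG, the uncovered ones 3, and the promoters of protein-coding genes under a peak of WT replicate 2 held 22. With 15 or more CpG, 89 of 185 windows lay under a member (48.1%; 40.7 to 55.6%), against 31 of 2580 with 2 or fewer (1.20%; 0.818 to 1.70%). The 31 windows poor in CpG lay under 27 members with a median fold of 21.5 and a median width of 1047 bp. All 27 were present in both KO libraries, against 94.8% of all peaks of both WT libraries. Members over windows with 15 or more CpG had a median fold of 31.3 and a median width of 832 bp. The median folds were 14.7 with 3 to 7 CpG and 16.2 with 8 to 14. CpG number was not part of the rule.

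**Figure D3:**
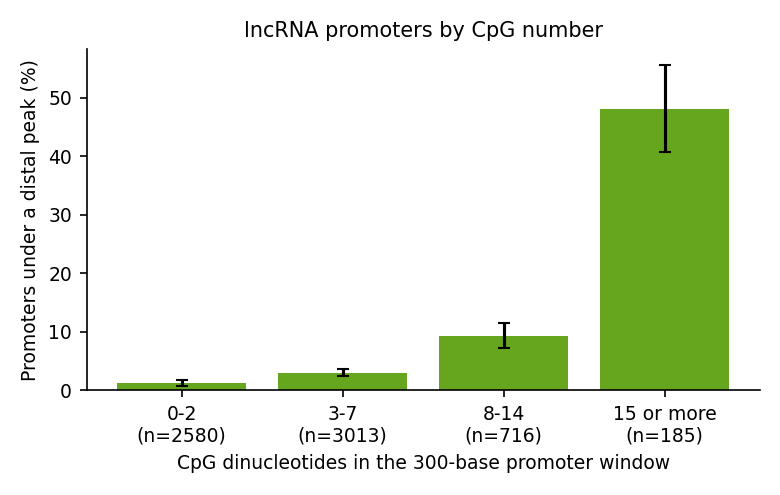
Percent of lncRNA promoter windows (300 bases, over 5 kb from coding genes) that overlapped a distal WT H3K4me3 peak, by number of CpG in the window (bars; error bars are exact 95% intervals; n is the number of windows). The share was 1.20% with 0 to 2 CpG and 48.1% with 15 or more.

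Of the motifs searched on both strands, TGACGTCA, the cyclic AMP response element, was in 10 of the 277 covered windows (3.61%), against 0.643% of uncovered ones and 1.83% of all 31396 promoter windows. In the 10725 windows of protein-coding genes under a peak of WT replicate 2 the share was 3.44%, close to that of the covered windows. The element contains a CpG, and the covered windows had more CpG than the uncovered ones. Snhg15 holds the element in the window printed above. TATAAA, the TATA box, was in 13.7% of covered, 17.5% of uncovered and 13.6% of all windows. A match describes the letters of the window and not a bound site.

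The median gap from a member to the next was 155 kb, against 18.5 kb between neighbouring peaks at or near coding genes. With gaps of at most 10 kb joined, 1318 members (45.5%) fell into 506 clusters and 1576 stood alone. Of the clusters, 368 were pairs and 29 held 5 members or more. The share of gaps under 1 kb was 20.1%, against 32.2% between neighbouring peaks at or near coding genes. Chromosome 13 had the highest share of its WT peaks among the members (19.6%) and chromosome 7 the lowest (7.43%).

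The largest cluster held 53 members in 38.0 kb at the start of chromosome 9 (chr9:3000259-3038242), 297 kb from Alkbh8, with Mir101c as the one noncoding gene within 1 kb. Its peaks were weak, with folds of 1.91 to 4.54, and their starts were a median of 618 bp apart. In WT replicate 1 the interval held 4 peaks covering 37.5 kb, and in KO replicate 1 it held 6 covering 37.2 kb. All 53 members were present in KO replicate 1 and 44 in KO replicate 2. Over all peaks of both WT libraries the shares were 98.8% and 95.7%. A single broad H3K9me3 peak covered the whole interval in WT and in KO. An H3K27me3 island of 39.0 kb lay over it in WT replicates 1 and 2, with folds of 1.25 and 1.16, and in the 30 and 40 h lists. The KO list and the 96 h list of WT had no island there, and the nearest lay 229 kb and 219.8 kb away. Whether reads in this interval mapped to 1 place was not tested.

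A cluster of 12 on chromosome 6 (chr6:47744132-47789061) contrasted with it, with folds of 12.2 to 150 and a median of 95.1. It held the Y RNA genes Rny1 and Rny3, the lncRNA genes Gm52861 and Gm52862 and the pseudogene Rpl31-ps7, and its peaks were a median of 4360 bp apart from start to start. The strongest, at chr6:47772051-47773175, had folds of 19.3 and 150 in WT and 24.2 and 125 in KO. Over all peaks of both WT libraries, 94.8% were present in both KO libraries and 1.01% overlapped H3K9me3 of WT. Here all 12 members were present in both KO libraries, and none overlapped H3K9me3. An H3K27me3 island covered 9 of them in WT replicate 1 and 10 in WT replicate 2, with folds of 1.66 and 1.94, and none in KO, where the nearest island lay 57.1 kb away. That island was also missing at 30 h, and it was present at 40 h and 96 h with folds of 1.11 and 1.25. H3K27me3 in KO rests on 1 library.

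Clusters of tRNA genes came next. One of 8 members on chromosome 3 (chr3:96486128-96503229) held 5 tRNA genes and had a median fold of 35.5, and one of 8 on chromosome 13 (chr13:21159050-21173476) held 9 tRNA genes and had a median fold of 12.7. Another on chromosome 13 held 7 members and 9 tRNA genes. All members of these 3 clusters were present in both KO libraries, against 94.8% of all peaks of both WT libraries. None overlapped H3K9me3 or H3K27me3, against 1.01% and 10.2% of those peaks in WT (replicate 1 for H3K27me3). Of the other clusters of 7, one lay near Ppara, the nuclear receptor of fatty acid oxidation, with folds of 4.90 to 63.7, and one near Fgfr4, the receptor through which FGF signals from the gut repress bile acid synthesis, with folds of 4.90 to 26.4. A cluster of 7 on chromosome 14, 114 kb from Gm2244, lay whole in H3K9me3 in WT and KO and had a median fold of 3.01.

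H3K9me3 broad peaks overlapped 148 members in WT (5.11%; 4.34 to 5.98%) and 141 in KO (4.87%; 4.12 to 5.72%), and 124 were the same members. Over all peaks of both WT libraries the share was 1.01% in WT and 0.947% in KO, and at or near coding genes it was 0.449% and 0.411%. Without the clusters of over 10 members, which hold the chromosome 9 interval, 95 of 2829 members overlapped H3K9me3 in WT (3.36%; 2.73 to 4.09%) and 88 in KO (3.11%; 2.50 to 3.82%). These intervals count members within 1 list, and H3K9me3 had 1 library per genotype, so genotypes cannot be compared by them. The strongest of the H3K9me3-overlapping members were the peaks near Cr2 and Csf2ra (chr19:61266550-61267244, folds 9.06 and 75.9 in WT, 8.82 and 68.9 in KO), and peaks 13.9 kb from Usp10, at the pseudogene Gm7488, and at 1700030F04Rik. The KO list of broad H3K9me3 peaks had none at Gm7488 or at the Csf2ra member, and had one at the other 3. In WT, Gm7488 and the Csf2ra member had no narrow H3K9me3 peak either, nor did the member near Cr2.

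H3K27me3 islands overlapped 417 members in WT replicate 1 (14.4%; 13.1 to 15.7%), 504 in WT replicate 2 (17.4%; 16.0 to 18.8%) and 351 in KO (12.1%; 11.0 to 13.4%). Over all peaks of both WT libraries the shares were 10.2%, 13.2% and 9.97%. Without the clusters of over 10 members the shares were 12.5% (11.3 to 13.8%) in WT replicate 1, 15.6% (14.3 to 17.0%) in WT replicate 2 and 12.4% (11.2 to 13.7%) in KO. WT replicate 1 and KO then differed by less than their intervals, while the interval of WT replicate 2 overlapped neither that of KO nor that of WT replicate 1. WT replicate 2 was labelled as round 3, and WT replicate 1 and KO carried no round. The intervals count members within 1 list and do not measure spread between libraries, so genotypes cannot be compared by them. Of the 372 members under islands in both WT libraries, 266 were under one in KO and 106 were not, and 62 of those 106 belonged to the chromosome 6 and 9 clusters. At 30, 40 and 96 h the shares were 10.4%, 10.7% and 13.1%, each from 1 library, against 4.81%, 4.97% and 10.9% of peaks at or near coding genes. Without the clusters of over 10 members the 3 shares were 8.77%, 8.73% and 13.1%.

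By distance from coding genes, H3K9me3 of WT overlapped 1.99% of members at 5 to 10 kb, 2.78% at 10 to 50 kb and 2.04% at 50 to 100 kb, and then 18.7% at 100 to 500 kb. H3K27me3 of WT replicate 1 overlapped 9.21%, 13.3%, 13.2% and 26.3% in the same bins. Beyond 500 kb the shares were 17.9% (7.54 to 33.5%; 7 of 39) for H3K9me3 and 10.3% (2.87 to 24.2%; 4 of 39) for H3K27me3. The bin of 100 to 500 kb holds the 53 members of chromosome 9, and without them it gave 7.37% (4.95 to 10.5%) for H3K9me3 and 16.1% (12.5 to 20.1%) for H3K27me3. The 7 members at 5S ribosomal RNA genes on chromosome 8 all lay under an H3K27me3 island in WT replicates 1 and 2 and at 96 h, against 1 of 7 in KO and none at 30 and 40 h. Over all peaks of both WT libraries the shares were 10.2%, 13.2% and 9.97% in WT replicates 1 and 2 and KO. Neighbouring members can share 1 island (median width 28000 bp in WT replicate 1), so the 7 are not separate observations. Their median fold was 4.41, and whether their reads mapped to 1 place was not tested.

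**Figure D4:**
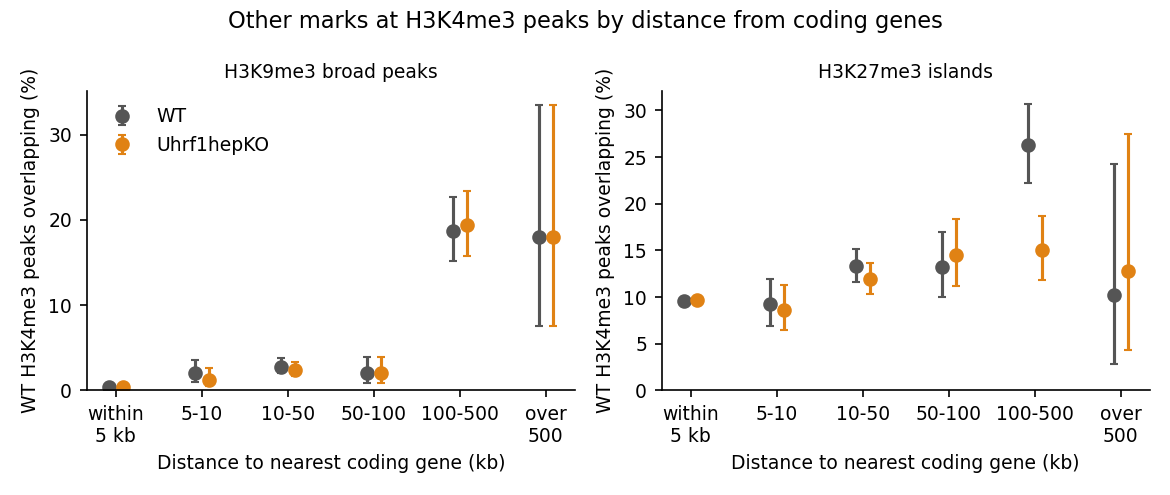
Percent of WT H3K4me3 peaks that overlapped H3K9me3 broad peaks (left) and H3K27me3 islands (right; WT replicate 1 and KO), by distance to the nearest protein-coding gene in kb, for WT (grey) and Uhrf1hepKO (orange) lists. Bars on points are exact 95% intervals; the rise at 100 to 500 kb, to 18.7% for H3K9me3 of WT, includes 53 peaks of 1 cluster on chromosome 9.

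Most members were found in both knockout libraries, the stronger ones without exception. In KO replicate 1, 2851 of 2894 were present (98.5%; 98.0 to 98.9%), against 98.8% of all peaks of both WT libraries. In KO replicate 2, 2591 were present (89.5%; 88.4 to 90.6%), against 95.7%. In both, 2565 were present (88.6%; 87.4 to 89.8%), against 94.8%. The 303 missing from KO replicate 2 were weak, with a median width of 161 bp and a median fold in WT of 5.39, against 345 bp and 9.30 for those present. Among the 543 members with a fold of at least 20.6, the median of all peaks of both WT libraries, all were present in both KO libraries. This was so for nearly all peaks at or near genes too. In KO replicate 2, 5613 of 5614 with folds from 20.6 to 47.0 and all 5918 with higher folds were present. In KO replicate 1, all of them were. Of the 1163 members with a fold below 7.34, which were 40.2% of all members, 76.8% (74.2 to 79.2%) were present in KO replicate 2. Of the 4376 peaks at or near genes in the same range of folds, 84.6% (83.5 to 85.6%) were present there.

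**Figure D5:**
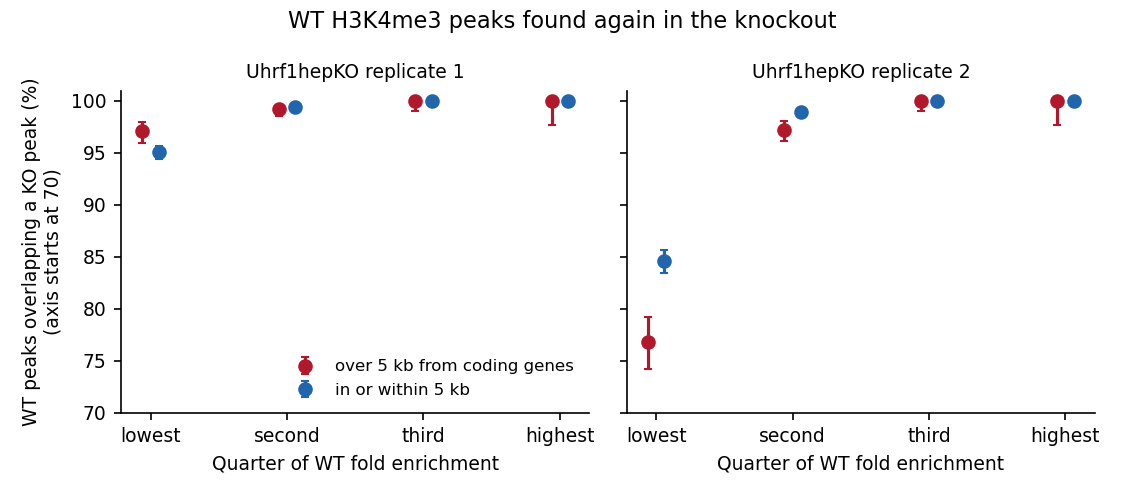
Percent of WT H3K4me3 peaks that overlapped a peak of KO replicate 1 (left) or replicate 2 (right), by the fold in WT replicate 2, in 4 groups divided at folds of 7.34, 20.6 and 47.0, for peaks over 5 kb from coding genes (red; 1163, 1188, 388 and 155 peaks) and the others (blue). The vertical axis starts at 70% and bars are exact 95% intervals; distal peaks were at 76.8% in the lowest group of replicate 2 and at 100% in the upper 2 groups.

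The members absent from both KO libraries numbered 17 (0.587%; 0.343 to 0.939%), against 0.282% of all peaks of both WT libraries. Their folds in WT replicate 2 were at most 6.85 and their median width was 213 bp, and 13 had a KO peak within 1 kb. The highest lay 76.0 kb from Npy5r (folds 3.79 and 6.85 in WT replicates 1 and 2) and 173 kb from Ceacam5 (3.79 and 6.62). Of the 17, 4 had as their nearest coding gene a major urinary protein gene (Mup1, Mup8, Mup9 or Mup12), which encode lipocalins that hepatocytes secrete. Of all 15 members nearest to a Mup gene, 11 were present in KO replicate 1 and 6 in KO replicate 2. Over all peaks of both WT libraries the shares were 98.8% and 95.7%. Among members with a fold below 7.34 in WT replicate 2 they were 97.1% and 76.8%. The Mup genes are near-identical copies, so placement of their reads is uncertain. One of the 17 lay at a 5S ribosomal RNA gene and one at Rnu1b6, a U1 small nuclear RNA gene.

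The same rule applied to the KO lists gave 3416 distal peaks, of which 3300 (96.6%) were in WT replicate 1, 2436 (71.3%) in WT replicate 2, and 91 (2.66%; 2.15 to 3.26%) in neither, against 1.25% of all peaks of both KO libraries. The list of WT replicate 2 was the shortest of the 4. The 91 had a median fold of 5.44 in KO replicate 2, against 8.70 for all 3416, and 39 of them lay over 10 kb from any WT peak. The highest, with a fold of 91.7, lay in the lncRNA gene Gm5087 (chr14:13160434-13160673), 5840 bp from a WT peak. Others lay in Gm36684 (21.7) and Gm6135 (12.3), the latter 24182 bp from a WT peak. A peak of 1537 bp 444 kb from Pcdh7, a protocadherin gene, reached 12.6-fold, and 259359 bp separated it from the closest WT peak.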

How the data were processed

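The authors called regions in each library separately. They used FastQC 0.11.5, Trimmomatic, BWA, Picard, MACS2 and SICER with build GRCm38.p4 (mm10), per the submitters' processing notes, which state neither further versions nor parameters in what was used here. Each peak of the deposited MACS2 lists has a score, its fold over background, and −log10 values of p and q. The deposited SICER islands (window 1000 bp, gap 4000 bp) give ChIP and control read counts, a p-value, a fold and a q-value, and those with a q-value of at most 0.01 were used. Overlap meant at least 1 bp. Genes came from the RefSeq table of GRCm38.p6. Peaks with gaps of at most 10 kb formed a cluster. Scripts ran in Python 3.11.15 with scipy 1.17.1, pandas 2.3.3, numpy 2.4.6 and matplotlib 3.10.9. The interval code was tested on 3000 simulated regions against a base by base count, with 0 wrong. The members, gene lists and alternatives were chosen with earlier results of these data known. Named members were the 10 of highest fold, the 10 widest, the largest clusters, those absent from both KO lists and the mirror set, the 5 of highest fold under H3K9me3 or H3K27me3, those within 1 kb of a listed gene, and the 5 on each side of the 5 kb limit. One of the widest members is not reported here.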

Additional observations from a re-analysis of the deposited data

How the results depend on the processing

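The lists rest on peak calls of unknown depth, so a peak missing from a list was not detected there rather than absent. Of 74 recomputed values, 39 stayed within 1.5 times the count or within the interval of the percent, and 35 moved. The number of members was 865 over 50 kb from coding genes and 1294 away from genes of every type, and ran from 3144 to 14831 with 1 WT replicate left out, the latter without replicate 2, since the list of replicate 1 is longer. The percent present in both KO lists was 85.9 over 50 kb and 85.9 away from genes of every type, and ran from 21.97 to 98.5 with 1 library left out. The count absent from both KO lists was 11 over 10 kb and 7 over 50 kb, and ran from 43 to 3249 with 1 library left out. The count of KO-defined peaks absent from both WT lists was 44 over 50 kb and 53 away from genes of every type, and ran from 116 to 3838 with 1 library left out. The percent in clusters was 41.1 with gaps of at most 5 kb and 58.8 with 50 kb. The percent with a noncoding gene was 37.4 for overlap, 55.3 within 5 kb and 90.0 within 50 kb. H3K9me3 overlap in WT was 4.04% with narrow peaks, 2.90% with a −log10 q of at least 5, 4.25% with 50% of the member covered and 3.36% without the clusters of over 10 members, an alternative chosen after seeing the data; in KO these were 3.84%, 2.90% and, without the clusters, 3.11%. H3K27me3 overlap in WT was 17.4% with replicate 2, 3.35% with islands of at least 2-fold and 12.5% without the clusters, and in KO 3.35% with islands of at least 2-fold. The cause of these shifts was not tested beyond the fewer regions that stricter settings leave. No paired analysis was possible because no result comes from a test, and the labels tie WT and KO libraries of H3K4me3 by a round in replicate 2 alone.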

Other observations

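Some members lay nearest to genes of hepatocyte function. Of 79 such genes matched from a list of 81, 23 were the nearest coding gene of 44 members, 30 of these within 50 kb. The 44 were 1.52% of all members, and 1759 of 20661 coding genes (8.51%) were the nearest to a member. All 44 were present in KO replicate 1 and 35 in KO replicate 2. The shares were 98.5% and 89.5% of all members, and 98.8% and 95.7% of all peaks of both WT libraries. Of members with a fold below 7.34 in WT replicate 2, 76.8% were present in KO replicate 2. Apob, the apolipoprotein of very low density lipoprotein, had 6 members at 26.7 to 67.4 kb, with folds in WT replicate 2 of up to 66.1, of which 4 were present in KO replicate 2. Cps1, the first enzyme of the urea cycle, had 4 at 5.16 to 8.22 kb, with folds of up to 10.8, of which 2 were present there. Ppara had 4 at 60.8 to 74.0 kb with folds of up to 63.7, all present in both KO libraries. Serpina1a, an alpha-1 antitrypsin gene, had 2 with folds of up to 31.3, also present in both. Single members lay nearest to Prox1 (57.9 kb, fold 19.1) and Bcl6 (97.7 kb, fold 21.5), a transcriptional repressor, and both were present in both KO libraries.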
